A study of Macaca fascicularis with 6 samples.

Results

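The cells described here are GZMK-negative CD8 T cells of the cynomolgus monkey (Macaca fascicularis) lung, chosen cell by cell from measured transcripts. A cell was taken when it had 501 to 4999 detected genes, at most 25% of its unique molecular identifiers (UMIs, the tags that mark single captured RNA molecules) in mitochondrial genes, at least 2 of the T cell genes CD3D, CD3E, CD3G and TRAC, and CD8A. It also had to lack any UMI of GZMK, CD4, CD40LG, FOXP3, MKI67, TOP2A, MS4A1, C1QA and CSF3R. The rule gave 1770 cells of the 25388 that passed the limits on genes and mitochondrial UMIs, from 35133 barcodes. The same rule with GZMK detected gave 1738 GZMK-positive CD8 T cells, the closest comparison. Since CD3 genes, CD8A and GZMK chose the cells, their values are given only as a description.

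Droplet single-cell RNA sequencing had been run on large-airway lung tissue of 6 monkeys, 1 library from each animal. The study's methods describe them as males of 3 to 5 years. Each library was a mixture of dissociated lung cells after red cell lysis and dead cell removal, and the study states that cells were not sorted before capture. The asthma monkeys (replicates 8, 10 and 11) had received Ascaris suum antigen at 1 mg/mL with adjuvant under the skin in weeks 1, 3 and 5, and at 10 mg/mL through the nose in weeks 6, 8, 10 and 11, while the control monkeys (replicates 1, 2 and 3) had received saline.

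CD8 T cells recognise peptides on MHC class I through a T cell receptor whose signal is carried by the CD3 chains, and kill their targets with granules that hold granzymes, perforin and granulysin. Granzyme B marks cells armed for killing, whereas granzyme K marks another CD8 state that is common in tissues. CD6 is a coreceptor of T cells that binds CD166. In macaques natural killer (NK) cells also carry CD8A, so CD8A alone does not separate T cells from NK cells.

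Control monkeys 1, 2 and 3 gave 131, 392 and 318 of these cells. Asthma monkeys 8, 10 and 11 gave 432, 268 and 229. Values are given below in that order of animals throughout. The median depth of the cells was 3468, 4217.5, 3860, 3416, 2968 and 3602 UMIs, and their summed UMIs were 499839, 1915648, 1315235, 1574561, 879352 and 854971, so that control 1 had the smallest sum and the least precise levels. The libraries held between 29014556 and 41489879 UMIs in all. Pairs of libraries shared 137 cell barcodes, and none of these was shared between cells of the described kind.

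Many cells lay close to the limits of the rule. Of the 1770 cells, 265 carried exactly 2 of the 4 T cell genes, 532 carried 3 and 973 carried all 4, while 275 further cells met every other condition with only 1. CD8A was seen as a single UMI in 762 cells and as 2 UMIs in 489, and 1245 cells met the rule except that CD8A was not detected. On the other side of the GZMK limit, 439 of the 1738 GZMK-positive cells had a single UMI of that gene and 264 had 2. A cell with no GZMK UMI at these depths may still have held the transcript.

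The cells carried the 4 genes that name them, but in unequal parts. Levels are given as CPM, the UMIs of a gene per 1000000 UMIs summed over the cells of a class in a library, scaled by the trimmed mean of M values (TMM) method. The CD3E level (ENSMFAG00000040556, a chain of the T cell receptor complex) was 419, 460, 397, 618, 587 and 354 CPM, and that of CD8A (ENSMFAG00000028439) was 504, 471, 496, 524, 710 and 599 CPM. Both were present in all 6 libraries, CD8A as the rule required of every cell, and CD3E as 1 of 4 T cell genes of which any 2 sufficed. The CD6 level (ENSMFAG00000033693), which the rule did not use, was 99.9, 145, 101, 203, 198 and 76.7 CPM. In NK-gated cells, which had no CD3 gene or TRAC and at least 2 of NKG7, KLRD1, NCR1 and KLRF1, the CD6 level was 2.38, 8.05, 2.82, 6.82, 12.1 and 0 CPM, so each monkey's T cells lay above its NK-gated cells. The GZMB level (ENSMFAG00000043077, granzyme B) was 4088, 6684, 6093, 7372, 6775 and 7352 CPM, lowest in control 1. It lay far above the 106 to 458 CPM of B-gated cells (MS4A1 with CD79A or CD79B, no CD3 gene or TRAC), a lineage that does not kill through granules, and below the 13083 to 19626 CPM of the NK-gated cells. The GZMK-positive cells ranged from 5202 to 9354 CPM of GZMB and overlapped with the GZMK-negative cells.

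Not every cell carried a GZMB UMI. The share with at least 1 was 66.4, 94.9, 84.3, 93.1, 77.6 and 76.4%, or 1512 of 1770 cells (85.4%). It was lowest in control 1 and highest in control 2, and the groups overlapped. Over the 6 libraries its median was 80.9% in GZMK-negative cells, 93.7% in GZMK-positive cells, 99.6% in NK-gated cells and 15.4% in B-gated cells, whose median depth was 3970 to 4549 UMIs. After each cell was thinned to 2000 UMIs, which kept 127, 364, 284, 392, 250 and 215 GZMK-negative cells, the medians were 77.8, 91.4, 99.4 and 6.05%. CD6 was found in a median of 34.1% of GZMK-negative cells before thinning and 22.0% after it, against 1.80 and 0.85% of NK-gated cells and 5.85 and 1.78% of B-gated cells. CD6 and GZMB, the markers that the rule left free, were thus both present in these cells, and a cell with no GZMB UMI at these depths may still have held the transcript.

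**Figure D1:**
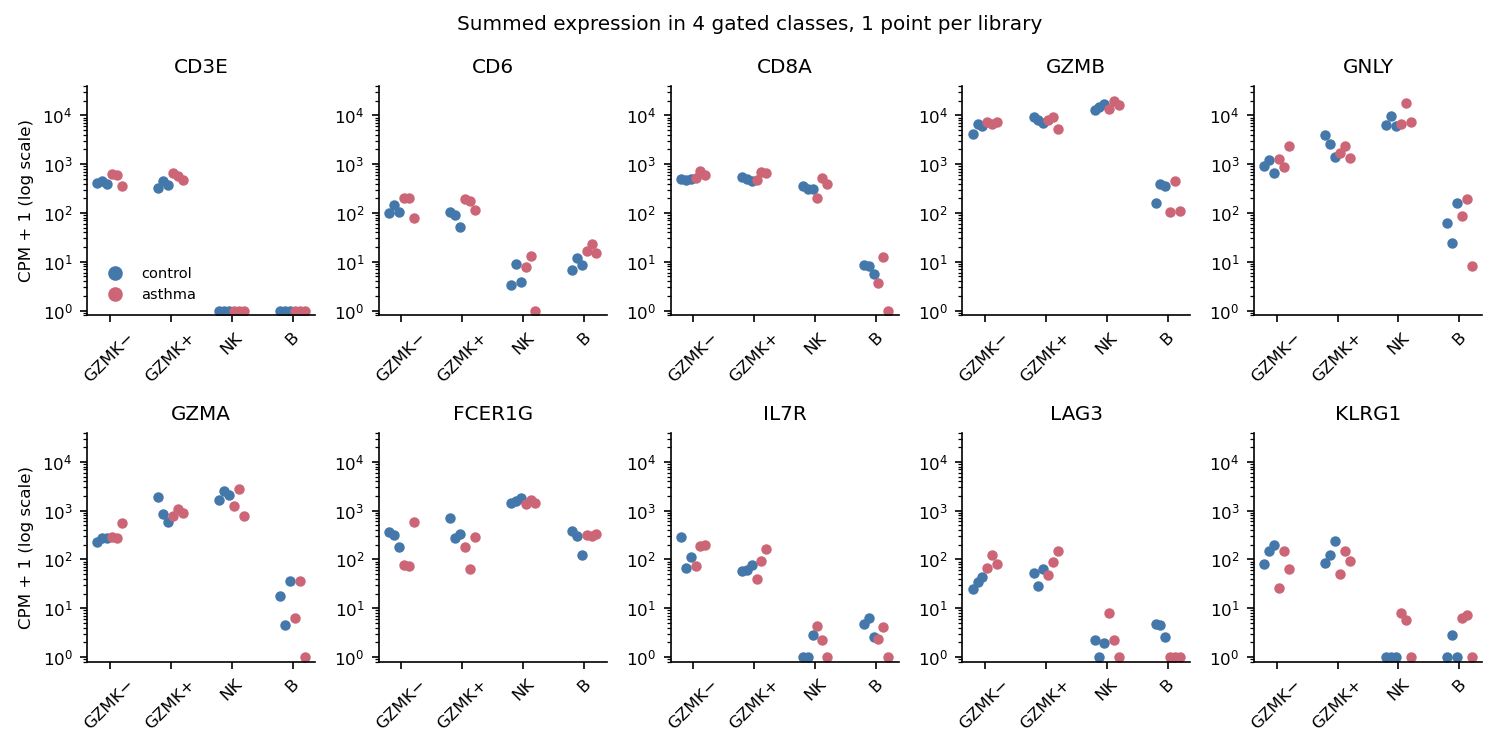
Levels of 10 marker genes (CPM + 1 after TMM scaling, log axis) in GZMK-negative CD8 T cells (GZMK−), GZMK-positive CD8 T cells (GZMK+), NK-gated cells and B-gated cells, with 1 point for each library, blue for control and red for asthma. CD6 of the GZMK-negative cells lies between 76.7 and 203 CPM, above all NK-gated cells (0 to 12.1 CPM), while their GZMB level lies below that of the NK-gated cells.

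The NK genes FCER1G, NCR1 and KLRF1 were present in a minority of the cells. At least 1 UMI of FCER1G, NCR1 or KLRF1, which belong to NK cell receptors and their signalling chains, was found in 32.8, 32.4, 25.8, 18.8, 13.1 and 47.6% of them. Asthma 11 stood highest and asthma 10 lowest. The same share was 87.2 to 97.0% in NK-gated cells and 11.6 to 20% in B-gated cells, which should lack these genes. Asthma 8 and 10 lay within the range of the B-gated cells. Within its own library, asthma 8 lay above its B-gated cells (14.3%) and asthma 10 below them (19.5%). Whether the cells with such a UMI were T cells with NK receptors or NK cells with T cell transcripts was not settled, so the name CD8 T cells stands here for the rule. In NK-gated cells CD8A was detected in 66.0, 59.4, 63.4, 50, 75.2 and 69.9%, against at most 3.91% of B-gated cells. Other genes of NK cells were found more widely in some libraries. The lectin receptor gene KLRB1 was detected in 9.72% (asthma 8) to 84.9% (control 3) of the GZMK-negative cells. The adaptor gene TYROBP was detected in 27.6% (asthma 10) to 62.0% (control 2) of them.

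Single UMIs of other lung cells were common in some libraries, while large amounts lay in few of the cells. SFTPC, a surfactant gene of alveolar epithelium, had a UMI in 53.4, 25.3, 7.23, 21.3, 26.5 and 85.6% of the GZMK-negative cells, most in asthma 11 and control 1. ITLN1, a mesothelial gene, had one in 3.05, 9.69, 5.66, 27.3, 26.5 and 6.99%, most in asthma 8 and 10. At least 2% of the UMIs came from 61 markers of 9 other lineages in 27 cells (1.53%), 13 of them in control 2, and in 21 GZMK-positive cells (1.21%). The mesothelial list, led by ITLN1 with 93.2% of its sum, reached 34.8, 2637, 16.8, 1737, 1553 and 100 CPM, and in control 2 the 5 cells with most ITLN1 held 99.2% of its UMIs. The epithelial list, led by SFTPC, reached 7038, 3647, 515, 244, 245 and 5864 CPM, of which the secretoglobin gene SCGB3A2 made 6332 CPM in control 1, with 99.6% of those UMIs in 1 cell. Haemoglobin HBB was at 2739 CPM in control 2 and at most 5.90 CPM elsewhere, again with 5056 of 5068 UMIs in 1 cell. The genes MS4A1, C1QA and CSF3R were at 0 by the rule. A doublet caller run with its own threshold marked only 10 of 25388 cells and had not worked, so cells were removed as doublets only in an alternative, which took away 49 of the 1770 (2.77%), among them 7 of the 27 with foreign transcripts.

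The frequency of GZMK-negative CD8 T cells did not separate asthma from control lungs. They made 2.91, 11.2 and 7.82% of all cells in control monkeys 1, 2 and 3 and 10.0, 5.68 and 5.35% in asthma monkeys 8, 10 and 11 (7.30% ± 4.15 against 7.02% ± 2.61, SD, n = 3 each). The 95% Wilson interval of a library, which covers counting error only, was 2.45 to 3.44% for control 1 and 10.2 to 12.2% for control 2. With 1 library from each monkey, a difference between animals and one between library preparations cannot be told apart. The asthma lungs lay inside the range of the controls. The exact permutation p, two-sided and taken over all 20 ways to split the 6 libraries 3 against 3, was 1, and such a split cannot give a p below 0.1.

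Among T cells the GZMK-negative CD8 cells made 11.1, 24.3 and 23.3% in controls and 23.2, 15.7 and 24.5% in asthma (19.6% ± 7.33 against 21.1% ± 4.77, SD, n = 3 each). Control 1 stood apart at the low end, and the exact permutation p was 0.7. Among CD8 T cells they made 36.9, 60.3 and 58.8% in controls and 50.4, 33.6 and 74.6% in asthma (52.0% ± 13.1 against 52.9% ± 20.6, SD, n = 3 each, exact permutation p = 1). The highest and the lowest share both came from asthma monkeys, 11 and 10. Adjusted over the 3 shares by the Benjamini-Hochberg method, each exact permutation p was 1.

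**Figure D2:**
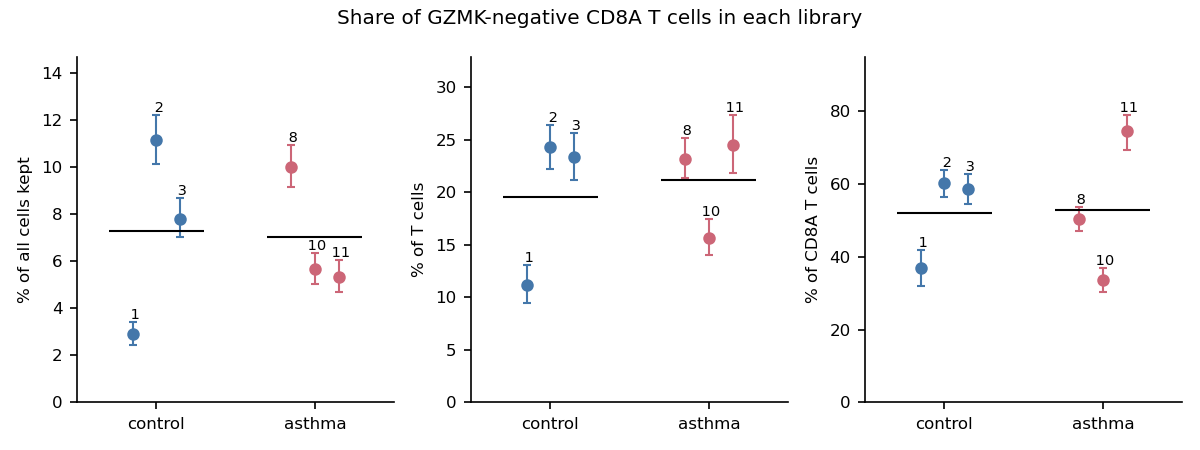
Share of GZMK-negative CD8 T cells (percent) among all cells, among T cells and among CD8 T cells, with 1 numbered point per monkey, its 95% Wilson interval as whiskers and the mean of each group (n = 3) as a horizontal line. Control and asthma monkeys overlap in all 3 panels, and control 1 is the lowest control in each.

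The GZMK-negative cells were divided by whether GZMB was detected. The 258 cells (14.6%) without a GZMB UMI numbered 44, 20, 50, 30, 60 and 54, and they were compared with the other 1512 within each monkey. Cells without GZMB had higher levels of IL7R, TCF7, LEF1 and LTB, genes of memory T cells, and of the chemokine receptor gene CCR6. Cells with GZMB had higher levels of GZMA, GNLY, NKG7, PRF1, CCL5 and IFNG, the genes of killing and of inflammatory signalling. The cells without GZMB were deeper in 4 monkeys and slightly shallower in control 2 and asthma 11. Their median depth was 3907, 4154.5, 4071, 4083, 3522.5 and 3578.5 UMIs against 3259, 4234.5, 3812, 3400.5, 2863.5 and 3661.

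By edgeR's quasi-likelihood test with the monkey as a block, 470 of 3373 genes passed (13.9%), at a Benjamini-Hochberg adjusted p under 0.05 and a log2 fold change beyond 0.25 in size. Of these, 182 were higher in cells with GZMB (5.4%) and 288 lower (8.54%), and 534 genes (15.8%) had all 6 monkeys in 1 direction. The median log2 fold change of all genes tested was -0.01. GZMB itself was not tested, and 8.40 to 26.4% of B-gated cells also held a GZMB UMI. The source of these UMIs was not tested. For GZMB-detected against GZMB-undetected cells thinned to 2000 UMIs, 252 of 1446 genes passed, 217 of them among the 470.

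Killing genes rose together with GZMB. Of 9 tested genes of the cytotoxic granule list 6 were higher and 1 was lower in GZMB-detected cells, with a median log2 fold change of 1.81. GZMA (ENSMFAG00000039153, granzyme A) stood at 0, 0, 10.6, 0, 10.2 and 0 CPM in cells without GZMB and at 355, 289, 343, 317, 360 and 764 CPM in cells with it. The groups lay far apart in every monkey, although the lower level rested on 4 UMIs in all (log2 fold change 6.48 ± 0.34 SE, edgeR adjusted p = 3.72e-11). GNLY, which encodes granulysin, a pore-forming granule protein, went from 253, 145, 84.9, 122, 122 and 332 CPM to 1337, 1280, 808, 1408, 1133 and 3181 CPM. It had the smallest adjusted p among the genes named (3.1 ± 0.14, edgeR adjusted p = 7.17e-12) and was higher in 6 of 6 monkeys.

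The granule membrane gene NKG7 (log2 fold change 2.04), the cystatin CST7 (1.88), perforin PRF1 (1.81) and the granzyme B inhibitor SERPINB9 (1.12) were also higher, while the cathepsin CTSW was lower (-0.78). The mast cell protease gene CMA1 was at 2 UMIs in the cells without GZMB and 426 in those with it, a ratio of 36.7 with a counting interval from 10.1 to 304. Its mean was 68.9 CPM in cells with GZMB. The summed mast cell markers, which did not include CMA1, stood at 0.54 to 23.6 CPM in all GZMK-negative cells. The source of the CMA1 UMIs was not tested. SEMA3G, a secreted semaphorin, and OPLAH, an enzyme of glutathione metabolism, were higher by 3.91 ± 0.44 and 3.19 ± 0.44. On the side without GZMB they had 4 and 15 UMIs in all, and the counting interval of the ratio was 7.59 to 72.2 for SEMA3G and 4.87 to 14.5 for OPLAH. The chemokine CCL5 (2.43 ± 0.12) and the cytokine IFNG (1.59 ± 0.21) were the 2 of 4 tested cytokine genes that passed. Of 7 tested effector genes 4 were higher and none lower, with the transcription factors ZEB2 (2.59) and TBX21 (1.98) among them, and the list's median was 1.14.

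NK receptor genes went with GZMB. Of 8 tested, 4 were higher in GZMB-detected cells and none lower, with a median of 1. FCER1G, the signalling chain shared by Fc and NK receptors, stood at 56.1, 29.1, 37.1, 0, 30.5 and 77.5 CPM without GZMB and at 539, 332, 215, 86.9, 87.1 and 768 CPM with it (3.00 ± 0.23, edgeR adjusted p = 1.89e-08). The adaptor TYROBP (2.03), the lectin receptor chain KLRD1 (1.04) and the activating receptor NCR3 (1.0) passed too. With every cell that had FCER1G, NCR1 or KLRF1 left out, 354 genes passed between the remaining cells with and without GZMB, 324 of them among the 470. Of other lineages, LYZ, APOE, KRT19 and ITLN1 were also higher in GZMB-detected cells, at log2 fold changes of 1.10, 1.11, 1.71 and 2.03, while the endothelial marker PECAM1, which some T cells also carry, was lower in 6 of 6 monkeys (-1.18), and their part in the result was not tested. LYZ and ITLN1 turned to the other side when cells were thinned to 2000 UMIs.

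Memory genes were higher in the cells without GZMB. All 7 genes of the naive and central memory list that passed, of 9 tested, were lower in GZMB-detected cells, with a median of -2.04. IL7R, the receptor for the survival cytokine IL-7, stood at 702, 567, 265, 608, 635 and 576 CPM without GZMB and at 109, 48.6, 90.3, 36.7, 58.6 and 107 CPM with it. No monkey's value with GZMB reached any value without it (-2.91 ± 0.23, edgeR adjusted p = 1.89e-08). The transcription factors LEF1 (-2.64 ± 0.44) and TCF7 (-2.14 ± 0.21), the lymphotoxin gene LTB (-2.05), the chromatin organiser SATB1 (-1.46) and the transcription factor ID3 (-1.21) were lower with GZMB in the same way. The receptor SLAMF1 (-2.30) and FAM102A (-2.10) were among the largest differences in this direction. CCR7, the lymph node homing receptor that defines naive and central memory cells, had 0.54 CPM in control 2 and was at 0 in the other 5 libraries of GZMK-negative cells.

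CCR6 had the largest fold in this direction among the genes named. This receptor for the chemokine CCL20 (ENSMFAG00000039819) stood at 91.2, 87.2, 111, 112, 157 and 133 CPM in cells without GZMB. In cells with GZMB it stood at 20.5, 9.15, 14.1, 10.2, 11.1 and 8.14 CPM. The groups did not overlap (-3.30 ± 0.27, edgeR adjusted p = 4.49e-08). Another chemokine receptor, CXCR3 (-1.93), and the junctional adhesion molecule JAML (-2.31) were lower with GZMB too, and 3 of 4 tested chemokine receptors were lower and none higher.

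Immediate-early genes and genes of type 2 immunity lay on the same side as CCR6. Of 17 tested immediate-early genes 12 were lower in GZMB-detected cells and none higher, with a median of -0.60. FOS fell from 5606, 6396, 4962, 4882, 5820 and 2585 CPM to 3786, 3059, 3545, 2373, 3303 and 1030 CPM (-0.88 ± 0.10, edgeR adjusted p = 3.5e-06), with asthma 11 lowest on both sides, and MYC was lower by 2.07 on the log2 scale. GATA3 and IL4R, the 2 type 2 genes tested, were both lower by 0.95. Of 6 tested activation genes CD74 and ANXA1 were higher in GZMB-detected cells and none lower, with a median of 0.39. Of the T cell receptor list only CD7 passed of 6 tested, being lower, and CD6 did not pass (-0.32 ± 0.19, edgeR adjusted p = 0.306).

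**Figure D3:**
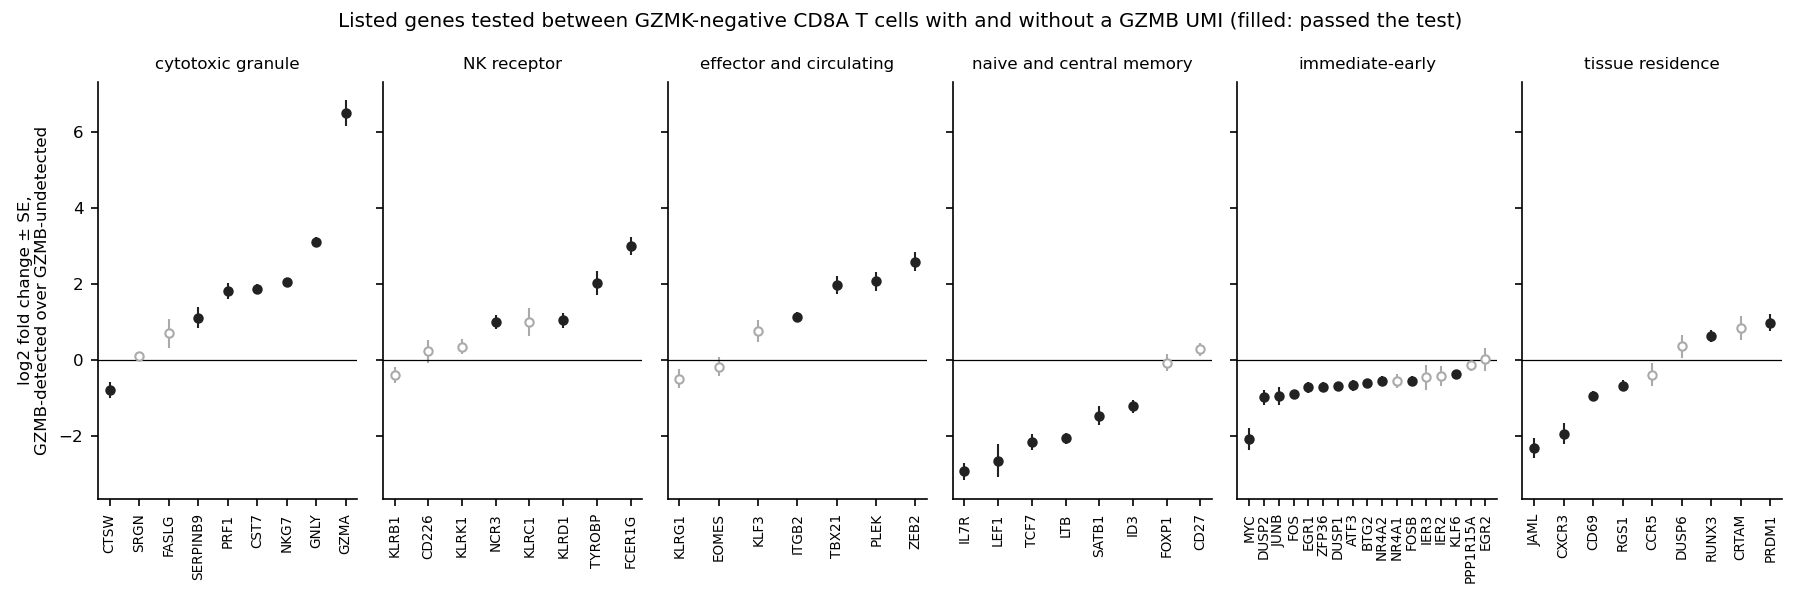
Log2 fold change ± SE (edgeR, monkey as block) of GZMB-detected over GZMB-undetected GZMK-negative CD8 T cells for tested genes of 6 lists, with filled points for genes that passed the test and open points for those that did not. Granule genes other than CTSW lie above 0, with GZMA highest at 6.48, and IL7R is lowest among the memory genes at -2.91.

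Against GZMK-positive CD8 T cells of the same lungs, few genes differed. The GZMK-negative cells had less GZMA and EOMES and more CCR6 and JAML in all 6 monkeys, while granzyme B, perforin, granulysin and NKG7 did not pass. By edgeR's quasi-likelihood test with the monkey as a block, 6 of 7512 genes passed (0.0799%), 4 higher (0.0532%) and 2 lower (0.0266%), and 468 had an unadjusted p under 0.05. In 343 genes (4.57%) all 6 monkeys went in 1 direction, and the median log2 fold change of all genes tested was 0.00463.

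GZMA, whose granzyme cleaves other substrates than granzyme B, stood at 1926, 817, 582, 758, 1015 and 954 CPM in GZMK-positive cells and at 234, 269, 277, 281, 270 and 560 CPM in GZMK-negative cells. Every GZMK-negative value lay under every GZMK-positive value. The log2 fold change was -1.61 ± 0.21 (edgeR adjusted p = 0.00677). EOMES (ENSMFAG00000002012), a T-box transcription factor of effector and memory CD8 cells, stood at 182, 105, 142, 81.4, 67.7 and 98.4 CPM and at 85.4, 47.2, 98.3, 40.9, 28.3 and 34.6 CPM. The ranges overlapped between monkeys, but in each monkey the GZMK-negative cells were lower (-1.01 ± 0.11, edgeR adjusted p = 0.00262).

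CCR6 stood at 1.34, 2.21, 8.76, 3.85, 4.40 and 3.78 CPM in GZMK-positive cells and at 42.7, 11.7, 27.2, 16.2, 44.8 and 34.6 CPM in GZMK-negative cells. The classes did not overlap (2.64 ± 0.31, edgeR adjusted p = 0.00303). CCR6 was too low to be tested after thinning to 2000 UMIs, with at least 2 UMIs of CD8A and without cells carrying FCER1G, NCR1 or KLRF1. Its UMIs lay in 13, 13, 19, 20, 23 and 13 GZMK-negative cells. The 5 cells with most CCR6 held 57.9, 63.6, 61.1, 44.4, 39.5 and 69.0% of them. JAML (ENSMFAG00000033179), an adhesion molecule of T cells at epithelia, stood at 8.05, 5.15, 14.9, 13.2, 27.5 and 22.7 CPM against 29.2, 14.3, 34.8, 43.9, 97.8 and 38.2 CPM. It was higher in the GZMK-negative cells of each monkey (1.58 ± 0.16, edgeR adjusted p = 0.00248), and asthma 10 had the most on both sides. CCR6 and JAML were also among the genes higher in cells without GZMB, which made a larger part of the GZMK-negative than of the GZMK-positive class in 6 of 6 monkeys.

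The other 2 genes that passed, ITLN1 and MSLN, are made by mesothelial cells, the lining of the pleura. ITLN1 stood at 18.8, 537, 10.5, 420, 80.9 and 15.1 CPM in GZMK-positive cells and at 33.7, 2431, 15.9, 1602, 1453 and 81.1 CPM in GZMK-negative cells (2.40 ± 0.34, edgeR adjusted p = 0.0118). MSLN, which rose in 5 of 6 monkeys, was chosen for naming after its values were seen (1.71 ± 0.27, edgeR adjusted p = 0.0372). With the cells that had at least 2% of UMIs from other lineages left out of both classes, ITLN1 was at a log2 fold change of 0.16 and neither gene passed, whereas GZMA, EOMES, CCR6 and JAML were among the 19 genes that then passed.

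**Figure D4:**
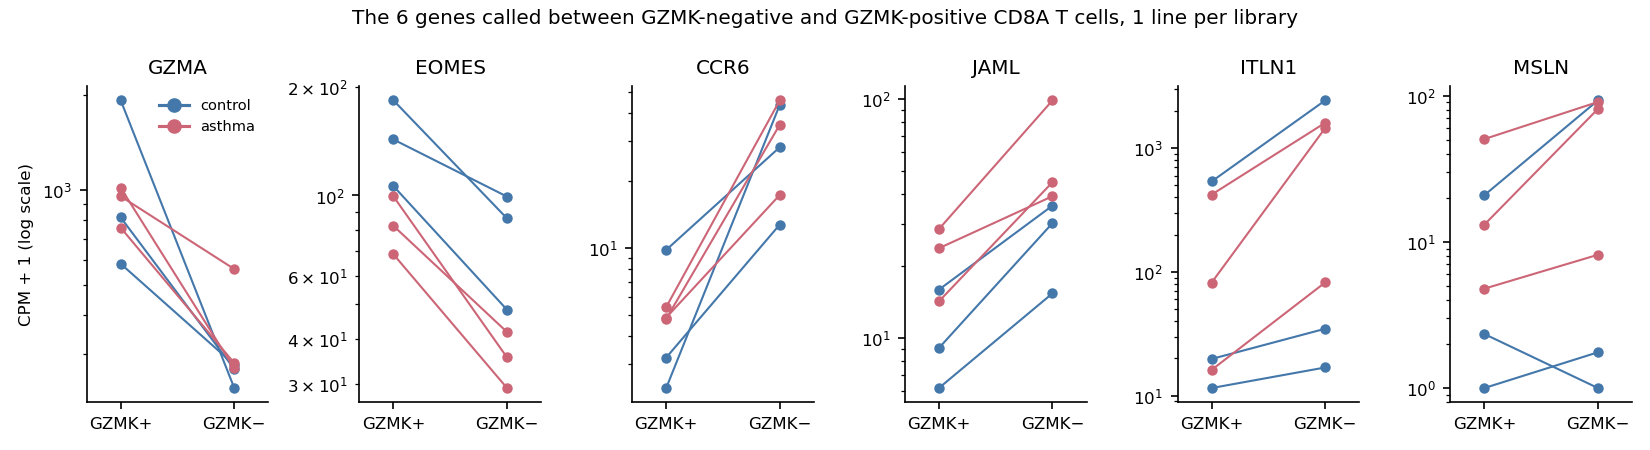
Levels (CPM + 1 after TMM scaling, log axis) of the 6 genes that passed between GZMK-positive (GZMK+) and GZMK-negative (GZMK−) CD8 T cells, with a line joining both values of each of the 6 monkeys, blue for control and red for asthma. GZMA and EOMES are lower, and CCR6, JAML and ITLN1 higher, in the GZMK-negative cells of every monkey, and MSLN is higher in 5 of 6.

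Further genes with a direction shared by the monkeys did not pass. The inhibitory receptors PVRIG and TIGIT had log2 fold changes of -0.81 ± 0.14 and -0.58 ± 0.13 (edgeR adjusted p = 0.0745 and 0.22). DENND2D, LYAR and SAMD3 lay at -0.51, -0.50 and -0.49 (edgeR adjusted p = 0.309, 0.0769 and 0.406). A shared direction in all 6 monkeys was a condition for naming these genes and PVRIG and TIGIT. None of the 6 tested genes of the inhibitory receptor list passed. ZNF683, which encodes the residence factor Hobit and was chosen after its values were seen, stood at 5.36, 6.62, 1.75, 3.30, 2.75 and 11.4 CPM in GZMK-positive cells and at 42.7, 4.25, 12.1, 18.6, 33.0 and 42.9 CPM in GZMK-negative cells. It was higher in 5 of 6 monkeys, the exception being control 2 (2.25 ± 0.41, edgeR adjusted p = 0.0769).

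Among the granule genes, 1 of 10 tested passed, which was GZMA, and the list's median was -0.28. GZMB lay at 9376, 7772, 7052, 7909, 8734 and 5506 CPM in GZMK-positive cells and at 4229, 6566, 6039, 7301, 6800 and 7429 CPM in GZMK-negative cells. It was lower in 5 monkeys and higher in asthma 11 (-0.27 ± 0.14, edgeR adjusted p = 0.815). GNLY was likewise lower in 5 monkeys and higher in asthma 11 (-0.89 ± 0.26, edgeR adjusted p = 0.361). The naive and central memory list had a median of 0.35 with none of 9 passing, and IL7R lay at 0.88 ± 0.21 (edgeR adjusted p = 0.241).

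Against NK-gated cells the GZMK-negative cells differed in a large part of the genes. They had more of the coreceptor CD6, of IL7R and of the inhibitory receptors LAG3 and PDCD1. They had less GZMB, GNLY, GZMA and PRF1, and less of the NK signalling genes FCER1G, TYROBP and SYK. By edgeR's quasi-likelihood test with the monkey as a block, 637 of 6593 genes passed (9.66%), 331 higher (5.02%) and 306 lower (4.64%). In 958 genes (14.5%) all 6 monkeys went in 1 direction, and the median of all genes was 0.00223. The genes of either gate were not tested. The gates themselves separate T from NK cells, so part of these differences follows from the choice of cells.

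CD6 was higher by 4.59 ± 0.21 on the log2 scale in the GZMK-negative cells (edgeR adjusted p = 1.64e-09). IL7R stood at 0, 0, 1.86, 3.57, 1.23 and 0 CPM in NK-gated cells and at 297, 66.2, 111, 72.0, 191 and 204 CPM in GZMK-negative cells. This was the largest difference upwards among the genes named (7.09 ± 0.31, edgeR adjusted p = 1.64e-09), with 4 UMIs in all on the NK side. The inhibitory lectin KLRG1 (6.17), the adaptor SIT1 (5.58), the receptor SLAMF1 (5.55), LAG3 (5.30) and the death receptor family member TNFRSF25 (5.12) followed. These folds rested on 6, 4, 2, 5 and 4 UMIs in NK-gated cells. The counting intervals of the ratios ran from 32 to 191 for KLRG1 and from 18.6 to 135 for LAG3. In asthma 8 KLRG1 stood at 7.13 CPM in NK-gated and 24.8 CPM in GZMK-negative cells, its smallest difference. SLAMF1 had 2 UMIs in NK-gated cells and 198 in GZMK-negative cells, a ratio of 53.0 with a counting interval from 14.5 to 440, and PDCD1, the checkpoint receptor PD-1, had 3 and 200 (ratio 35.7, interval from 12 to 174). Of 5 tested genes of the inhibitory receptor list, which also holds the nuclear factor gene TOX, 3 were higher and 1 was lower (median 0.94). Those that passed were LAG3, PDCD1, CD244 and TOX. Of the T cell receptor list CD6, LAT and CD2 were among the higher genes, and CD7, ZAP70 and CD247, which NK cells also use, were lower.

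GZMB stood at 13331, 15207, 17117, 14216, 20013 and 17204 CPM in NK-gated cells and at 4241, 6600, 6076, 7352, 6819 and 7466 CPM in GZMK-negative cells. The classes did not overlap (-1.34 ± 0.08, edgeR adjusted p = 3.71e-08). GNLY (-2.91 ± 0.23), GZMA (-2.56 ± 0.27), PRF1 (-0.83 ± 0.13) and CCL5 (-1.08 ± 0.11) were lower too, while CTSW was higher (1.84). Of 9 tested granule genes 7 were lower and 1 was higher, with a median of -0.58. IFNG did not pass (-0.12 ± 0.14, edgeR adjusted p = 0.73).

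Of 8 tested NK receptor genes 7 were lower and 1 was higher, with a median of -1.92. FCER1G stood at 1488, 1614, 1830, 1462, 1702 and 1525 CPM in NK-gated cells and at 374, 311, 180, 77.4, 72.1 and 583 CPM in GZMK-negative cells (-2.92 ± 0.32, edgeR adjusted p = 1.56e-05). The level was even among NK-gated cells and uneven among GZMK-negative cells. The kinase SYK (-3.15), the adaptor SH2D1B (-2.86), the secretory GTPase RAB27B (-2.70), the ligand ALKAL2 (-2.58), KLRC1 (-2.49) and TYROBP (-2.36) were lower. The activating receptor CD226 was the 1 gene of the list that was higher (2.20).

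Most tested residence, chemokine receptor and immediate-early genes were higher in GZMK-negative than in NK-gated cells. Of 10 tested residence genes 6 were higher and 2 lower (median 0.71), with CXCR3 (3.03), CD69 (0.59) and the epithelial-binding integrin ITGAE (0.83) among the higher. Of 5 chemokine receptors 4 were higher, including CXCR4 (1.67) and CCR6 (1.34 ± 0.39, edgeR adjusted p = 0.0381). Of 19 immediate-early genes 13 were higher and none lower (median 0.56). Of 6 tested genes linked to gamma delta and mucosal-associated invariant T cells 5 were higher, namely DPP4, TRGC2, IL18R1, RORA and CCR6. Of 8 tested activation genes 3 were higher and 1 was lower (median 0.43). Markers of other lineages moved with these genes, with IGKC (4.12 ± 0.82), SCGB3A2 (2.04), PECAM1 (1.80), CXCL8 (1.13) and LYZ (0.84) also higher in the GZMK-negative cells, and their part in the result was not tested. IGKC, SCGB3A2 and LYZ did not pass once cells with at least 2% of UMIs from other lineages were left out.

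Antigen challenge left no gene of the GZMK-negative cells past the limits. By edgeR's quasi-likelihood test, 0 of 7420 genes passed (0%) between asthma and control, 295 had an unadjusted p under 0.05 (125 higher and 170 lower), and the smallest adjusted p was 0.282. DESeq2 called 5 genes on the same sums, all lower in asthma, namely CFD, IL1B, PLAC8, PTX3 and ENSMFAG00000035374, the last 2 named after their values were seen. In 688 genes (9.27%) the 3 asthma values did not overlap with the 3 control values. The median log2 fold change was 0.00323, and with 3 animals a group and unequal cell numbers, a gene that did not pass is not shown to be unchanged.

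CISH, a feedback inhibitor of cytokine receptors, stood at 40.3, 35.5 and 49.0 CPM in controls and at 84.5, 102 and 81.0 CPM in asthma. The gene was seen in 15, 58, 52, 100, 61 and 57 cells, but it did not pass (1.10 ± 0.20, edgeR adjusted p = 0.282). CISH and the genes with a fold change that follow, down to GSTA5, were picked among those without overlap of the groups. Their lack of overlap was thus a condition of the choice and is no separate result. LAG3, an inhibitory receptor that binds MHC class II, stood at 24.6, 33.4 and 43.0 CPM against 64.1, 121 and 79.8 CPM, again without overlap (1.31 ± 0.28, edgeR adjusted p = 0.433). The lectin receptor CLEC12A (1.74 ± 0.60) and JAML (1.24 ± 0.43) also lay higher in all 3 asthma monkeys without passing, and so did A2M, a protease inhibitor, for which 1 cell of asthma 11 held 76.4% of that library's UMIs.

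On the lower side, the cytokine IL1B stood at 38.1, 39.7 and 85.3 CPM in controls and at 4.79, 15.3 and 7.14 CPM in asthma (-2.72 ± 0.47, edgeR adjusted p = 0.282). The summed granulocyte markers, led by S100A9, moved with it, at 185, 120 and 362 CPM in controls and 35.2, 36.4 and 61.4 CPM in asthma, with CSF3R at 0 by the rule, and their part in the result was not tested. In control 3 the 5 cells with most IL1B held 92.9% of its UMIs. The complement protease CFD stood at 285, 445 and 114 CPM against 46.7, 51.7 and 61.9 CPM (-2.41 ± 0.43, edgeR adjusted p = 0.282), and 1 cell held 74.8% of its UMIs in control 1.

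PLAC8 stood at 493, 177 and 274 CPM in controls and at 44.9, 89.3 and 111 CPM in asthma. It lay lower in every asthma monkey (-1.94 ± 0.41, edgeR adjusted p = 0.433) and was spread over 58, 65, 92, 29, 19 and 30 cells. The antioxidant enzyme genes GPX1 (-1.18 ± 0.33) and GSTA5 (-5.36 ± 1.34) did not pass either, and 131 of the 133 GSTA5 UMIs of control 1 lay in 1 cell.

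None of the killing genes passed between the groups. GZMB stood at 4216, 6555 and 6027 CPM in controls and at 7280, 6783 and 7413 CPM in asthma. All 3 asthma values lay above the controls, but the gene did not pass (0.35 ± 0.21, edgeR adjusted p = 1). GNLY lay at 0.68 ± 0.36 and PRF1 at 0.51 ± 0.33, and neither passed. The granule list as a whole had a median of 0.23 with 0 of 10 passing.

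No member of any gene list passed between asthma and control. The medians were 0.56 for the chemokine receptors, 0.14 for the residence genes, 0.19 for the inhibitory receptors, -0.21 for the interferon-stimulated genes, -0.40 for the immediate-early genes and -0.41 for the heat shock genes. Among markers of other lineages the medians were -4.75 for 2 B and plasma cell genes, -2.58 for 3 granulocyte genes and -0.62 for 6 macrophage and monocyte genes, and their part in the results was not tested. In control 3 a single cell held 1802 of 1812 IGKC UMIs. FOS stood at 4277, 3067 and 3550 CPM in controls and at 2407, 3798 and 1309 CPM in asthma, with overlapping groups. Type 2 cytokines were scarce. In the GZMK-negative cells IL5 and IL9, which drive eosinophils and mast cells, had no UMI in any library. IL13 was at 0.54 CPM in those of control 2 alone. IL4 reached at most 3.05 CPM. IL17A stood at 0, 1.62 and 10.7 CPM in controls and at 2.43, 9.39 and 0 CPM in asthma.

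**Figure D5:**
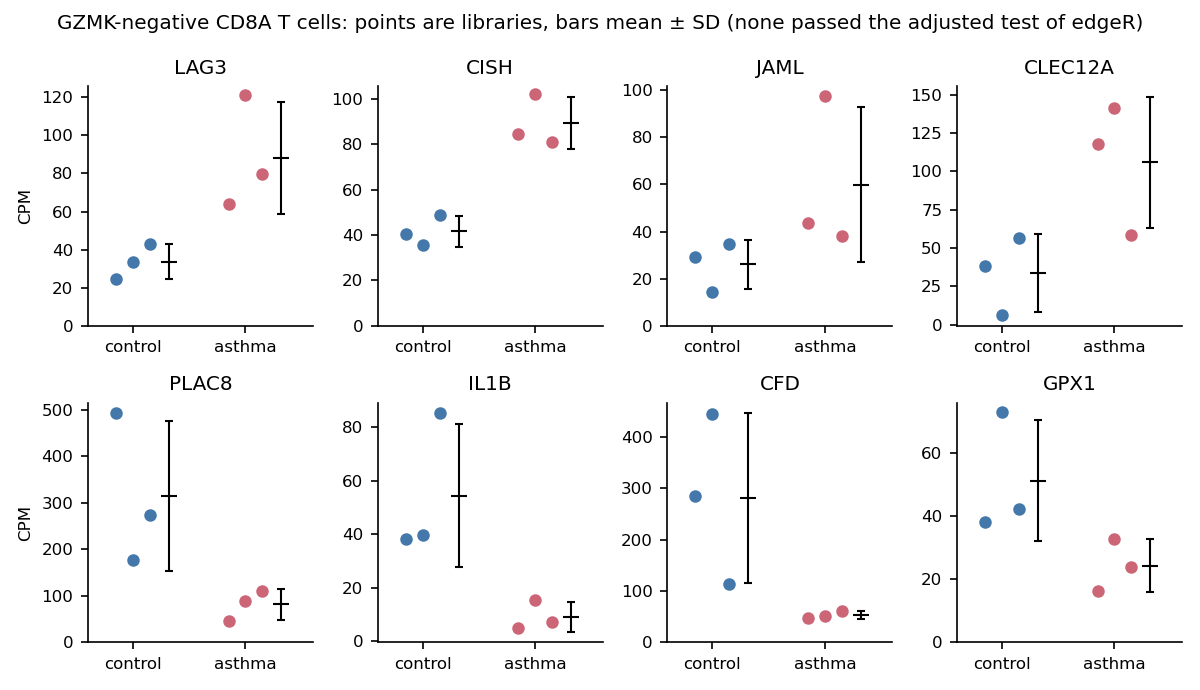
Levels (CPM after TMM scaling, linear axis from 0) of 8 genes in GZMK-negative CD8 T cells of the 3 control and 3 asthma monkeys, with 1 point per monkey and the mean ± SD (n = 3) beside them. LAG3, CISH, JAML and CLEC12A lie higher, and PLAC8, IL1B, CFD and GPX1 lower, in all 3 asthma monkeys, which was a condition of their choice. None of the 8 passed edgeR's adjusted test over all genes, while DESeq2 called PLAC8, IL1B and CFD.

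The difference of the asthma effect between GZMK-negative and GZMK-positive cells was tested in the same lungs. By edgeR's quasi-likelihood test of the interaction 0 of 8262 genes passed (0%), with 298 at an unadjusted p under 0.05. In 797 genes (9.65%) the within-monkey differences of the asthma animals did not overlap with those of the controls. The NK receptor gene KLRC1 had the largest difference upwards among the genes named (1.15 ± 0.27, edgeR adjusted p = 1) and GSTA5 the largest downwards (-5.95 ± 1.16, edgeR adjusted p = 0.672). NET1, ACOT7, SH2D2A and RGS3 lay on the side of KLRC1, and LMNA, PRDX1, SIT1 and TOPORS on that of GSTA5, without passing. A missed threshold does not show that the asthma effect was alike in both classes.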

How the data were processed

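Gene-by-cell UMI counts were deposited by the authors as 1 matrix for each of 6 libraries, with no cell annotation. The libraries were made with 10x 3′ chemistry and counted with Cell Ranger (2.1.1 in the submitters' processing notes, 4.0.0 in the file headers and another version in the study's methods, so the version is uncertain) on the macFas6 genome. The 6 libraries held 29014556 to 41489879 UMIs. Counts carry no normalization, so cells were selected, and UMIs summed per library and class, from the counts as deposited. Of 28623 genes, 7528 had an identifier without a symbol, and CD8B was not found by symbol. Symbols shared by several identifiers make such genes uncertain.

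Sums were scaled by TMM and tested with the quasi-likelihood test of edgeR 4.0.16 (filterByExpr, Benjamini-Hochberg), with genes called at an adjusted p under 0.05 and a log2 fold change over 0.25 in size. Each comparison was scaled over its own sums, so a gene's CPM can differ slightly between comparisons. Classes within a monkey were compared with the monkey as a block, since both sums came from the same animal. Asthma and control were compared without covariates. Shares were compared by a two-sided exact permutation test. Intervals are 95% and, like floors, cover counting error only. Each library came from 1 animal. Genes named were the 4 markers and, per comparison, up to 6 called genes per direction with the largest fold changes, at least 20 CPM in 1 arm and all pairs or groups in 1 direction. Where fewer than 3 were called in a direction, up to 5 that did not pass were named, at 50 CPM or more. They had the largest fold changes among genes with an unadjusted edgeR p under 0.05 and all pairs or groups in 1 direction. Of each gene list up to 4 members were named, called ones first, and further genes are said to be chosen after their values were seen. The cells, the gene lists and the tests were chosen with earlier results of these data known. The scripts were tested on simulated data. Alternatives were stricter cell limits, thinning, doublet removal with scanpy 1.11.5 (0.8% per 1000 cells), DESeq2 1.42.0, relative log expression scaling, no filter on low counts, no block and each library left out. Some listed genes are counted but not reported by name here. Data from authors' comparisons were not used.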

Additional observations from a re-analysis of the deposited data

Results flagged for a closer look

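In 5 of the genes named above, the difference between GZMK-negative and GZMK-positive cells went one way in all 3 control monkeys and the opposite way in all 3 asthma monkeys, on the scale of log2(CPM + 1). This pattern was seen in 262 of 8262 genes (3.17%). The 5 genes had been named for differences that did not overlap between the groups, so the pattern in them is no separate result. The edgeR test of the interaction itself passed for none of them, so a difference between the groups was not shown. For NET1 the asthma minus control difference was 0.78, with -0.44, -0.50 and -0.54 in controls against 0.23, 0.57 and 0.05 in asthma (edgeR adjusted p = 1). For GSTA5 it was -5.08 (edgeR adjusted p = 0.672), and its UMIs lay mostly in single cells. PRDX1, an antioxidant enzyme, had a difference of -0.95, the signalling adaptor SIT1 one of -1.04 and the nuclear ligase TOPORS one of -0.71 (edgeR adjusted p = 1 for each). With 3 animals a group, no outlier test of single samples within a group was made.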

How the results depend on the processing

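The asthma minus control difference of each share had no stable direction. The share of all cells went from -0.27 percentage points to 0.00467 with a mitochondrial maximum of 10%, 0.36 after thinning to 2000 UMIs, 0.00127 with at least 2 UMIs of CD8A and 0.20 without cells carrying FCER1G, NCR1 or KLRF1, and ranged from -2.47 to 1.66 without 1 library. The share of T cells (1.56) ranged from -2.67 to 4.28 without 1 library. The share of CD8A T cells (0.87) went to -1.23 after thinning, -1.69 with at least 3 T cell genes and -4.19 without the NK markers, and ranged from -10.0 to 10.5 without 1 library.

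For asthma against control, the count of 0 genes became 1 (RARRES1) with at least 2 UMIs of CD8A, 5 by DESeq2 and 116 with no filter on low counts, and ranged from 0 to 2 without 1 library, with JCHAIN and S100A8 passing without control 1 and CFD without control 3. For GZMK-negative against GZMK-positive, the 6 genes became 15 after thinning, 19 with at least 3 T cell genes, 19 with other-cell marker UMIs under 2%, 14 by DESeq2 and 207 with no filter, and 6 to 14 without 1 library. GZMA, EOMES and JAML passed under all of these, and CCR6 under all but thinning. It was too low to be tested there, with at least 2 UMIs of CD8A and without the NK markers. For GZMK-negative against NK, the 637 genes became 323 by DESeq2 and 983 with no filter, and 444 to 625 without 1 library. For GZMB-detected against GZMB-undetected, the 470 genes became 252 after thinning and 306 with at least 2 UMIs of CD8A, and 368 to 464 without 1 library. For the difference of the asthma effect between GZMK-negative and GZMK-positive, the 0 genes became 2 after thinning, 3 with doublets removed, 1 each with at least 3 T cell genes, without the NK markers and with other-cell marker UMIs under 2%, and 69 with no filter, and ranged from 0 to 8 without 1 library, highest without control 3. No cause of these shifts was tested.

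Single genes turned in few cases. LYZ in GZMK-negative against NK turned to -0.46 after thinning and -0.40 without the NK markers, and SCGB3A2 in GZMK-negative against NK to -1.68 with at least 3 T cell genes. LYZ in GZMB-detected against GZMB-undetected turned to -0.43 and -0.23, and ITLN1 in GZMB-detected against GZMB-undetected to -0.42 after thinning.

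No paired analysis was possible because asthma and control monkeys share no replicate numbers. In the comparisons of classes within monkeys, dropping the replicate block left 0 genes for GZMK-negative against GZMK-positive, 269 for GZMK-negative against NK and 305 for GZMB-detected against GZMB-undetected. The CD8B alternatives were not run because no gene carried that symbol. The limits on CD8A UMIs, on NK markers and on other-cell UMIs were chosen after seeing the data. Precision is limited by cell number in control 1, with 131 cells, and in the 20 to 60 cells per monkey without GZMB.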

Other observations

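The levels of 3 receptor genes in the GZMK-negative cells are given here by monkey. CX3CR1, a receptor of circulating effector cells, stood at 13.0, 61.1, 42.7, 59.5, 28.2 and 50.8 CPM in the 6 monkeys, and CXCR6, a receptor of tissue-resident cells, at 15.2, 5.40, 19.8, 12.7, 57.5 and 28.3 CPM. CX3CR1 was lowest in control 1 and asthma 10, and CXCR6 was highest in asthma 10 and lowest in control 2. KLRB1, the lectin receptor CD161, is among the NK receptor genes counted as lower than in NK-gated cells (log2 fold change -1.48 ± 0.31, edgeR adjusted p = 0.00506). In the GZMK-negative cells it stood at 421, 137, 996, 58.2, 759 and 590 CPM, with asthma 8 and control 2 lowest. In the GZMK-positive cells of the same animals KLRB1 stood at 755, 219, 1340, 152, 855 and 533 CPM, again with asthma 8 and control 2 lowest. These values come from the same libraries. Beyond the comparison of asthma with control, in which no gene passed, they were not tested across animals.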
